A study of Mus musculus with 4 samples.

Results

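The nuclear genes for the subunits of the mitochondrial respiratory chain, with the assembly factors of complex I, were examined in sorted mouse lung endothelial cells. Members were all rows of the gene table whose symbols begin with Nduf followed by a, b, c, s or v, with Uqcr, with Cox4 to Cox8 or with Atp5, together with Sdha, Sdhb, Sdhc and Sdhd. Ndufa4l2 and Cox4i2 were left out. The rule takes in 93 of 17915 genes, of which 46 belong to complex I, 4 to complex II, 8 to complex III, 18 to complex IV and 17 to complex V. Ndufa4 is counted with complex IV, where its product is now placed.

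Mice carried Cdh5-CreER, a tamoxifen-inducible Cre driven by an endothelial cadherin gene, aSMA-LSL-Dre, a Dre recombinase at the alpha smooth muscle actin gene, and the allele that the labels call NR1. The reporter marks endothelial cells with ZsGreen and turns to tdTomato once the actin gene has been active in the cell. Tamoxifen (given 5 times) and 6 weeks of transverse aortic constriction were common to both groups, so no group without constriction is compared here. There were 2 libraries of tdTomato+ and 2 of ZsGreen+ cells, with 17399497 and 18574737 counts for the former and 17050673 and 18165494 for the latter. The labels call them biological replicates, but do not say whether they came from separate or pooled mice, and the spread that p-values measure here, that between libraries, may be technical.

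The respiratory chain passes electrons from NADH at complex I and from succinate at complex II through ubiquinone to complex III, and from there by cytochrome c to complex IV, which reduces oxygen. Complexes I, III and IV pump protons across the inner mitochondrial membrane, and complex V, the ATP synthase, uses the gradient to make ATP. Every complex but complex II also holds subunits encoded in the mitochondrial genome, and none of those was analysed here. Endothelial cells are known to make much of their ATP by glycolysis and to use their mitochondria largely for signalling and biosynthesis. The study asked how gene expression differs between cells with and without a record of actin gene activity.

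All 10 endothelial markers were read in every library, among them Pecam1 at 1809 to 2104 CPM (counts per library size, with TMM factors). Of the 10, 8 had a log2 fold change (tdTomato+ over ZsGreen+) below 0, with a median of -0.16. EdgeR called 0 of them, with 1 at an unadjusted p under 0.05, against 8.77% of all genes tested. For 5 both tdTomato+ libraries lay below both ZsGreen+ libraries, against 18.2% of all genes tested, and for 1 both lay above, against 19.9%. Cldn5, an endothelial tight junction protein, was read at 407 and 533 CPM in tdTomato+ and 769 and 915 CPM in ZsGreen+ cells (-0.84, standard error, SE, 0.22), and DESeq2 called it. Emcn was the 1 above, at 617 and 677 CPM against 517 and 533 CPM (0.30, SE 0.18). The sum of the 10 markers was 9710 and 9565 CPM in tdTomato+ libraries, below the 12561 and 10799 CPM of ZsGreen+ libraries. Markers of fibroblasts, macrophages and alveolar type 2 cells were read as well, all 10 of each list in every library. Summed over 10 genes, fibroblast markers stood at 246 and 456 CPM in tdTomato+ and 101 and 124 CPM in ZsGreen+ cells. Macrophage markers stood at 5484 and 2579 CPM against 3031 and 675 CPM, where the groups overlapped, and alveolar type 2 markers at 552 and 643 CPM against 436 and 289 CPM. Of these fibroblast, macrophage and alveolar type 2 markers 10, 10 and 9 had log2 fold changes above 0, with medians of 1.46, 1.12 and 0.89. EdgeR called 0, with 7, 2 and 4 at an unadjusted p under 0.05, against 8.77% of all genes tested. DESeq2 called 3, 1 and 2, against 2.5%. Both tdTomato+ libraries lay above both ZsGreen+ libraries for 7, 2 and 7, against 19.9%. Airway markers summed to 429 CPM in ZsGreen+ replicate 2, most of it Scgb1a1 of club cells at 384 CPM, and to 57.8 to 79.7 CPM in the other 3 libraries. The part of these markers in the values below was not tested. In such bulk samples fewer cells of a type and less RNA per cell cannot be told apart.

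Promoters of the members were searched for motifs of factors known for respiratory genes, and 6 windows are shown, at least 1 for each complex, with the match in capitals. NRF1, nuclear respiratory factor 1, was searched as GCGC, any base, then TGCGC. ETS factors such as GABPA were searched as CCGGAAGT. Windows are from RefSeq on GRCm38.p6, read 5′ to 3′ on the gene's strand.
Ndufa11, complex I, NRF1, chr17:56717682-56717731, plus strand: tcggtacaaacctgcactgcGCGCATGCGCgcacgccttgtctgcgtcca
Sdha, complex II, NRF1, chr13:74350266-74350315, minus strand: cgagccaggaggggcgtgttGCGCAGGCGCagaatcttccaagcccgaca
Uqcr11, complex III, ETS, chr10:80406860-80406907, minus strand: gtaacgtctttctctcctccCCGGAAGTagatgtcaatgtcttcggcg
Cox6a1, complex IV, NRF1, chr5:115349091-115349140, minus strand: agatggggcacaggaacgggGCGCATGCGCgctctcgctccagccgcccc
Atp5k, complex V, NRF1, chr5:108434420-108434469, minus strand: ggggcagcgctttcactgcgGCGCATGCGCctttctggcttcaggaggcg
Atp5g2, complex V, NRF1, chr15:102671060-102671109, minus strand: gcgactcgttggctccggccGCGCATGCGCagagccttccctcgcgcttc
The match begins 60, 55, 66, 162, 50 and 42 bases before the gene's start in turn, and that of Sdha is on the opposite strand.

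RefSeq windows of 300 bases, 250 before and 50 after the start, were found for 77 of the 93 members. The NRF1 letters were in 18 of these on either strand, or 23.4%, against 4.78% of 27025 promoters of the same length and 10.1% of 10502 promoters of genes tested. They lay in 9 genes of complex I, 2 of complex II, 1 each of complexes III and IV and 5 of complex V. The Sdha window held 3 matches. The ETS letters were in 5 members, or 6.49%, against 4% of all promoters and 8.1% of those of genes tested. AAGATGGC, the core of the site bound by YY1, was in 10 members, or 13%, against 2.88% and 4.58%, and 8 of the 10 belonged to complex I. These matches began at base 11 to 39 after the start on the gene's strand, so within the transcribed part. The exception was Atp5pb, whose match began 3 bases before the start on the opposite strand. CCAAT was in 44.2% of members against 37.9% of all promoters and 38.8% of those of genes tested. TATAAA was in 10.4% of members, below the 14.2% of all promoters and above the 7.14% of those of genes tested. Atp5h was the only member with both NRF1 and ETS letters, which do not overlap there. Nrf1 itself stood at 51.3 and 38.6 CPM in tdTomato+ and 53.2 and 41.1 CPM in ZsGreen+ cells.

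The respiratory chain was well expressed in both groups. On the TPM scale, which is per transcript length, the 93 members together made up 4.11% and 4.49% of the listed TPM in tdTomato+ cells. In ZsGreen+ cells they made up 4.92% and 4.37%. No mitochondrially encoded gene was found among the rows, so these are shares of the genes listed. Levels compared between genes by TPM depend on effective transcript length, which ran from 140 to 3451 bases over the tested members. Ndufa11, at 2479 bases, had a mean of 163 CPM and 98.4 TPM. Ndufa3, at 171 bases, had a mean of 124 CPM and 1052 TPM. The median member had a mean of 337 TPM, against 12.5 TPM for the median of all 13177 genes tested. The summed level was 41096 and 44852 TPM in the tdTomato+ libraries and 49189 and 43674 TPM in the ZsGreen+ libraries. The highest and the lowest sum thus came from different groups, but tdTomato+ replicate 2 lay above ZsGreen+ replicate 2, so the groups overlapped.

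**Figure D1:**
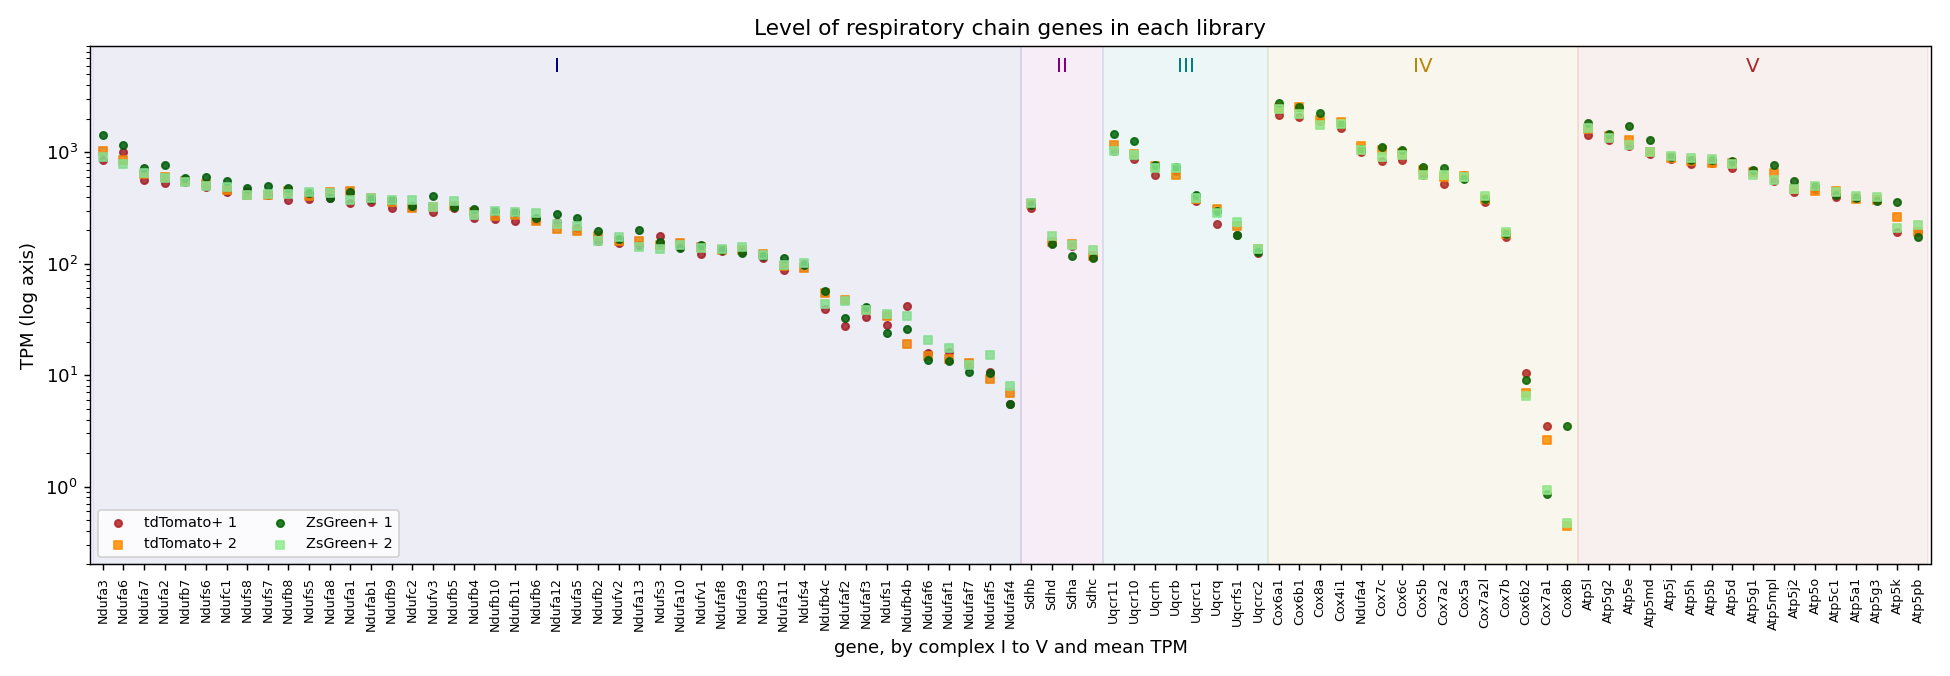
TPM of the members with a mean of at least 1 TPM, less 1 not shown (vertical log axis) in the 4 libraries, grouped by complex I to V and ordered by mean TPM. The 4 points of most genes lie close together, while genes of 1 complex span from Ndufa3 at a mean of 1052 TPM to Ndufaf4 at 6.46 TPM in complex I.

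Complex IV, cytochrome c oxidase, held the most abundant members. Cox6a1, a small subunit that regulates the enzyme, led with 2179 and 2482 TPM in tdTomato+ and 2797 and 2423 TPM in ZsGreen+ cells. Cox6b1, which bridges the dimer on the intermembrane side, stood at 2070 and 2566 TPM against 2543 and 2193 TPM. Cox8a, another small membrane subunit, stood at 1901 and 1962 TPM against 2230 and 1766 TPM. For each of these 3 genes the libraries of both groups overlapped. The 12 generally expressed members of the complex ranged from a mean of 183 TPM for Cox7b to 2470 TPM for Cox6a1.

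Except for Cox6b2, subunit isoforms of heart and skeletal muscle or of testis were near the floor. Cox6a2, the muscle form of subunit 6A, had 2 and 1 counts in tdTomato+ and 0 and 7 in ZsGreen+ libraries. Cox7a1, the muscle form of subunit 7A, had 7 and 6 counts against 2 and 2. Cox8b, the muscle form of subunit 8, had 0 and 1 counts against 8 and 1. Cox8c had 1 count in all. Cox7b2 had none in any library, where a count of 0 allows up to 3 counts, or 0.158 to 0.19 CPM by library, for counting error only. Cox6b2, a testis isoform, was the only such gene to pass the filter on low counts, at 10.5 and 6.91 TPM against 9.01 and 6.54 TPM. Cox6a1 thus made up at least 99.9% of subunit 6A transcripts, Cox6b1 99.5% to 99.7% of 6B and Cox8a at least 99.8% of 8 in each library. Markers of heart muscle cells, which surround lung veins in the mouse, summed to 14.8 to 21.4 CPM over 10 genes, of which 5 were read in every library. Most of it was Myl4, at 9.02 to 14.9 CPM, and Ryr2 was at 0 in all 4 libraries.

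Cox7a2 and Cox7a2l, which encode the common form of subunit 7A and a related factor that joins complexes III and IV into supercomplexes, shared the 7A family. Cox7a2 took 59.1% and 60.8% of the family's TPM in tdTomato+ libraries and 65.6% and 60.2% in ZsGreen+ libraries. Cox7a2l took 40.5% and 38.9% against 34.3% and 39.7%. The share of Cox7a2l was thus lowest in ZsGreen+ replicate 1, and the other 3 libraries lay close together.

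Complex V came next by single genes. Atp5l, which encodes the membrane subunit g near the dimer interface, was its most abundant member at 1420 and 1615 TPM in tdTomato+ and 1814 and 1648 TPM in ZsGreen+ cells. The ring of subunit c, which turns as protons pass, is encoded by Atp5g1, Atp5g2 and Atp5g3, whose mature products are the same. Atp5g2 supplied 55.2% and 57.6% of their TPM in tdTomato+ and 58.1% and 56.8% in ZsGreen+ libraries. Atp5g1 supplied 26.6% to 28.4% and Atp5g3 14.4% to 16.7%, and the 4 libraries gave the same order. The 5 genes of the catalytic F1 head ranged from a mean of 392 TPM for Atp5a1 to 1322 TPM for Atp5e, its smallest subunit.

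In complex III, which oxidises ubiquinol, the small subunit gene Uqcr11 was the most abundant at 1022 and 1154 TPM against 1460 and 1020 TPM. Uqcr10, another small subunit, stood at 877 and 961 TPM against 1259 and 940 TPM. Both were highest in ZsGreen+ replicate 1. The lowest mean of the complex was that of the core protein gene Uqcrc2, at 131 TPM. Uqcr11 (NCBI Gene 66594) spans chr10:80402997-80406821 of GRCm38.

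Complex II, succinate dehydrogenase, links the chain to the citric acid cycle and was the least abundant, with 735 and 764 summed TPM in tdTomato+ and 719 and 808 in ZsGreen+ cells. Sdhb, the iron-sulfur subunit, stood at 318 and 340 TPM against 339 and 352 TPM. Sdha, the flavoprotein, stood at 145 and 149 TPM against 117 and 146 TPM. The membrane anchors Sdhc and Sdhd lay at 113 to 131 TPM and 150 to 178 TPM over the 4 libraries.

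Complex I, the NADH dehydrogenase, had the most members, with means from 6.46 to 1052 TPM. Ndufa3, a small subunit of the membrane arm (NCBI Gene 66091, chr7:3617347-3620165 of GRCm38), had the highest mean, with 851 and 1037 TPM in tdTomato+ and 1420 and 899 TPM in ZsGreen+ cells. The 7 nuclear core subunits include those that hold the flavin and the iron-sulfur centres. Among them Ndufs8 led with 452 and 416 TPM against 474 and 417 TPM, followed by Ndufs7 with 410 and 415 TPM against 497 and 423 TPM. Ndufs1, the largest of them, was the lowest at 28.2 and 33.6 TPM against 24.1 and 35.1 TPM. Ndufs3, Ndufv1 and Ndufv2 had means of 154, 138 and 163 TPM. Ndufs7 and Ndufs8, with means of 436 and 440 TPM, did not differ beyond the spread of their libraries.

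Assembly factors, which build the complex and leave it, were expressed far below the subunits. Their 8 genes had a median of 15.8 TPM, against 280.1 TPM for the 38 subunit genes. Ndufaf8 was the highest with a mean of 133 TPM. Ndufaf5, a hydroxylase that modifies Ndufs7, stood at 10.6 and 9.23 TPM against 10.5 and 15.1 TPM. Ndufb4b and Ndufb4c are near-identical copies of Ndufb4. Counts of these 3 genes were not whole in any library, so reads were shared among them and their separate levels are uncertain.

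**Figure D2:**
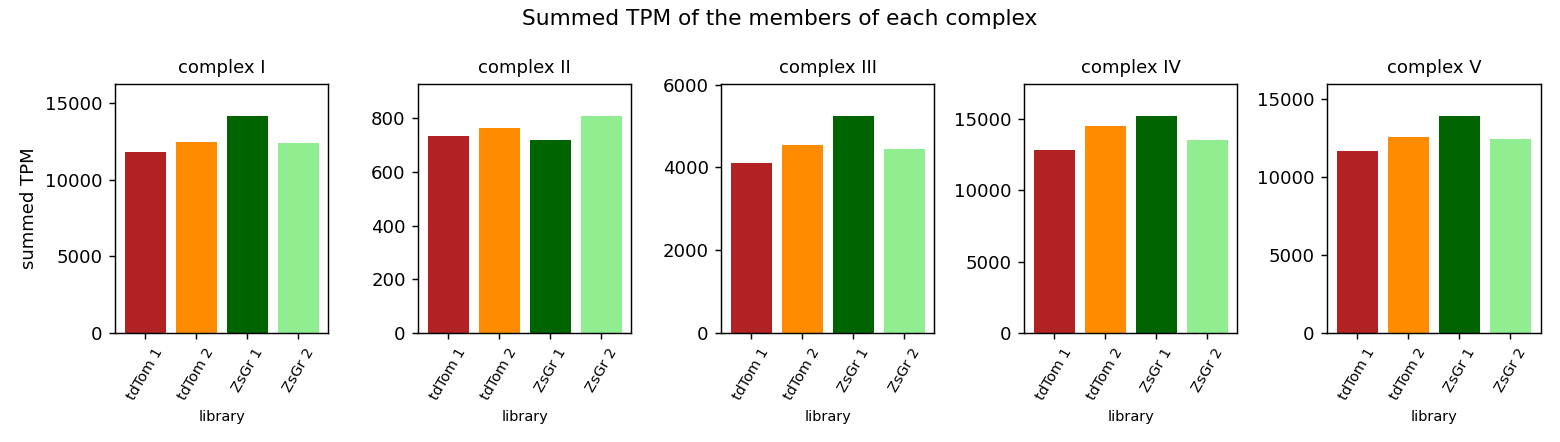
Summed TPM of the members of each complex in the 4 libraries (1 bar a library, each panel with its own axis from 0; tdTom is tdTomato+ and ZsGr is ZsGreen+). In complexes I, III, IV and V ZsGreen+ replicate 1 is the highest bar and tdTomato+ replicate 1 the lowest, while in complex II ZsGreen+ replicate 1 is the lowest at 719.

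No member differed between tdTomato+ and ZsGreen+ cells by the test across all genes. Of the 93, 88 passed the filter on low counts, and edgeR's quasi-likelihood test called 0 of them at an adjusted p under 0.05, against 0.304% of all genes tested (0.137% lower and 0.167% higher in tdTomato+ cells). The smallest adjusted p of a member was 0.671. At an unadjusted p under 0.05 edgeR had 0 of the 88, while 8.77% of all genes tested were under it, and limma-voom called 0 members as well. DESeq2 called 0 members, against 2.5% of all genes tested. With the replicate number as a block edgeR called 0 members, against 7.09%. The 5 that did not pass the filter were Cox6a2, Cox7a1, Cox7b2, Cox8b and Cox8c.

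Yet the members' log2 fold changes lay nearly all on the same side. Of the 88, 86 were below 0, that is lower in tdTomato+ cells, against 50.7% of all genes tested. The median log2 fold change was -0.26 over the members and -0.01 over all genes tested, and single members ranged from -0.56 to 0.03. Standard errors ranged from 0.16 to 0.59. The 95% interval of every tested member held 0. For 75 of the 88 it lay inside a 2-fold change in either direction, and Cox6b2 was the only member whose interval reached a 2-fold higher level. CPM of both tdTomato+ libraries lay below both ZsGreen+ libraries for 36 of the 88, or 40.9%, against 18.2% of all genes tested. For no member did both lie above, against 19.9%. These genes are read from the same 4 libraries and are not independent of each other.

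**Figure D3:**
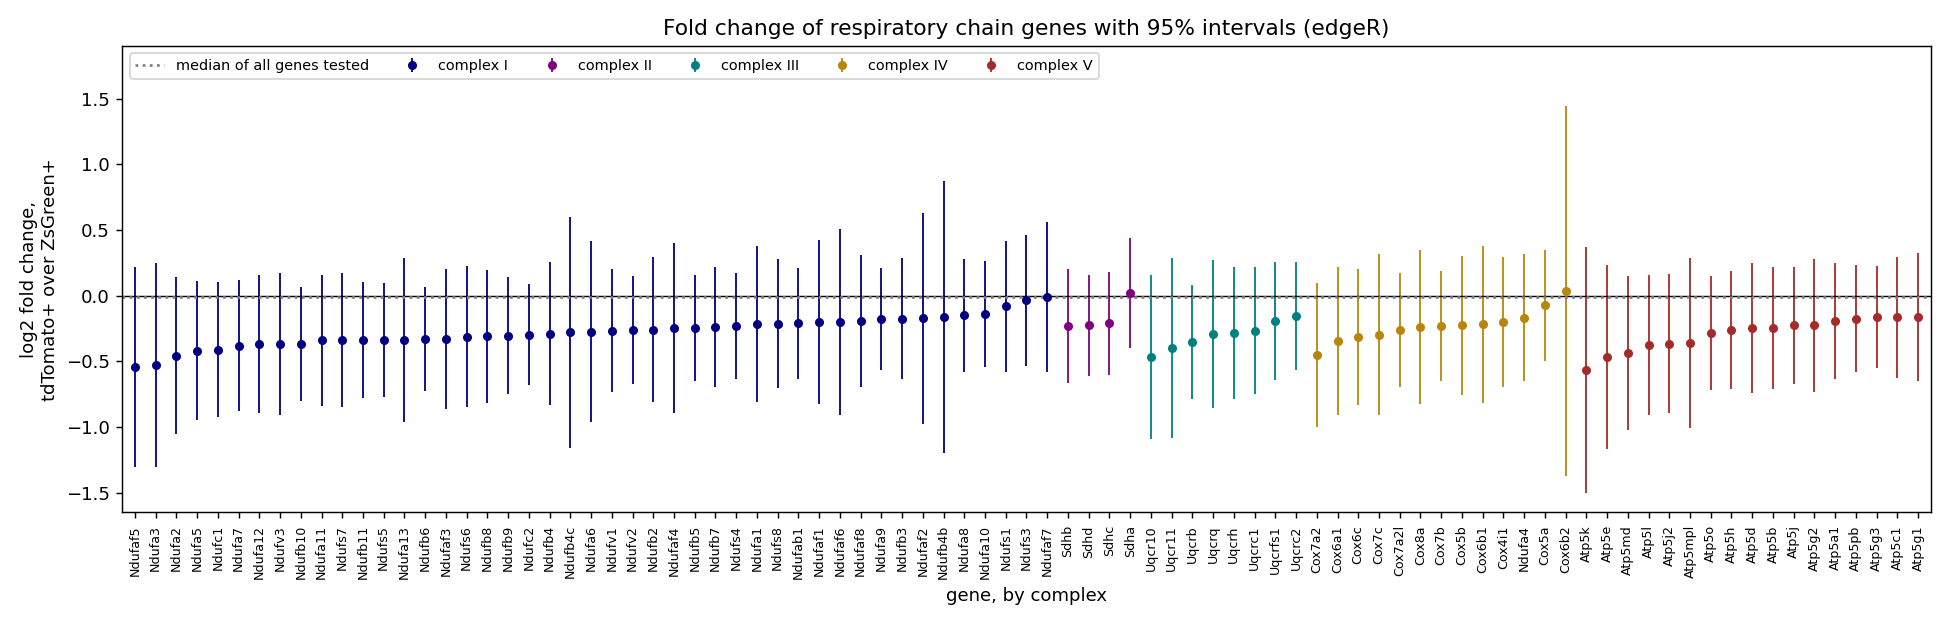
Log2 fold change of 87 of the 88 tested members (points, vertical axis, tdTomato+ over ZsGreen+) with its 95% interval from edgeR (bars), by complex. All but 2 points lie below 0, every bar crosses 0, and the dotted line gives the median of all genes tested, -0.01.

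By complex the median log2 fold change was -0.27 for complex I, -0.22 for complex II, -0.29 for complex III, -0.23 for complex IV and -0.25 for complex V. The number below 0 was 46 of 46, 3 of 4, 8 of 8, 12 of 13 and 17 of 17. Within complex I the 7 core subunits had a median of -0.21, the 9 accessory subunits of the matrix arm -0.37, the 22 of the membrane arm -0.29 and the 8 assembly factors -0.20. In complex V the median was -0.25 over the 5 genes of the F1 head and -0.27 over the 12 of the membrane part and stalks. By promoter letters it was -0.28 for the 18 tested members with NRF1 letters and -0.24 for the 56 without. With and without AAGATGGC it was -0.31 (10 members) and -0.25 (64), and with and without TATAAA -0.38 (6) and -0.25 (68). For CCAAT it was -0.26 (32) and -0.25 (42), and for ETS letters -0.26 both with (5) and without (69). Differences among these medians were not tested.

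In complex I the smallest p-values were those of Ndufb10 and Ndufb6, both membrane arm subunits. Ndufb10 was read at 75.7 and 85.6 CPM in tdTomato+ and 114 and 94.1 CPM in ZsGreen+ cells, a log2 fold change of -0.37 (SE 0.18, edgeR adjusted p = 0.671). Ndufb6 was read at 71.3 and 74.5 CPM against 95.4 and 88 CPM, a log2 fold change of -0.33 (SE 0.17). In both genes the groups did not overlap. The lowest fold change was that of Ndufaf5, at 6.77 and 5.99 CPM against 8.35 and 10.2 CPM (-0.54, SE 0.32). Core subunits Ndufs3 and Ndufs1 had log2 fold changes of -0.04 and -0.08, among the nearest to 0 of the complex, with the assembly factor Ndufaf7 at -0.01. On the log2(TPM + 1) scale those of Ndufs1 and Ndufs3 were above 0. Ndufs7 and Ndufv2 had -0.34 and -0.26 with groups that did not overlap.

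In complex II Sdhb, Sdhc and Sdhd had log2 fold changes of -0.23, -0.21 and -0.23, each with groups that did not overlap. Sdhd was read at 104 and 111 CPM in tdTomato+ and 126 and 126.4 CPM in ZsGreen+ cells. Sdha was the exception, at 239 and 258 CPM against 238 and 252 CPM (0.02, SE 0.18). Its 95% interval ran from -0.40 to 0.44.

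In complex III Uqcr10 was read at 137 and 162 CPM in tdTomato+ and 257 and 156 CPM in ZsGreen+ cells (log2 fold change -0.46, SE 0.26). Uqcr11 was read at 156 and 191 CPM against 292 and 166 CPM (-0.40, SE 0.29). In both the second ZsGreen+ library lay among the tdTomato+ libraries. Uqcrb, a subunit at the ubiquinone site, was read at 149 and 148 CPM against 209 and 170.4 CPM, without overlap (-0.35, SE 0.18, edgeR adjusted p = 0.696).

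In complex IV Cox7a2 had both the smallest p and the lowest fold change. It was read at 180 and 220 CPM in tdTomato+ and 321 and 228 CPM in ZsGreen+ cells, a log2 fold change of -0.45 (SE 0.23, edgeR adjusted p = 0.685), and its groups did not overlap. Cox6a1 was read at 509 and 620 CPM against 836 and 598 CPM (-0.35, SE 0.24), with overlap. Cox5a, a matrix-side subunit, was the nearest to 0 of the generally expressed members at -0.07 (SE 0.18).

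In complex V the lowest fold change was that of Atp5k, subunit e at the dimer interface, at 16 and 23.9 CPM in tdTomato+ and 40.6 and 18.6 CPM in ZsGreen+ cells (-0.56, SE 0.40). Atp5md, a small membrane subunit, was read at 104 and 118 CPM against 185 and 116 CPM (-0.43, SE 0.25). Both genes overlapped between groups, and in both ZsGreen+ replicate 1 stood far above the other 3 libraries. Atp5l was read at 284 and 347 CPM against 468 and 349 CPM, just without overlap (-0.37, SE 0.22). Atp5g1, Atp5g2 and Atp5g3 had log2 fold changes of -0.16, -0.22 and -0.17.

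ZsGreen+ replicate 1 held the highest CPM for 76 of the 88 members, or 86.4%, against 29.3% of all genes tested. The lowest CPM was that of tdTomato+ replicate 1 for 74 of the 88, against 3072 of all 13177 genes tested. The median log2 ratio of ZsGreen+ replicate 1 to ZsGreen+ replicate 2 was 0.30 over the members, larger than the median between groups, and that of tdTomato+ replicate 2 to replicate 1 was 0.19. The median over all genes tested was 0.01 and 0.00 for these ratios. The 4 pairings of a tdTomato+ with a ZsGreen+ library gave medians of -0.48 and -0.19 for tdTomato+ replicate 1 and of -0.32 and 0.01 for tdTomato+ replicate 2, each against ZsGreen+ replicates 1 and 2. Between tdTomato+ replicate 2 and ZsGreen+ replicate 2 42 of the 88 members were lower in the former. Without ZsGreen+ replicate 1 the median log2 fold change was -0.09 and 66 of 88 were below 0. Without ZsGreen+ replicate 2 it was -0.42 with 85 below 0, and edgeR called 0 of the 88, with 36, or 40.9%, at an unadjusted p under 0.05, against 14.7% of all genes in that fit. Without tdTomato+ replicate 1 it was -0.17 and without tdTomato+ replicate 2 it was -0.33.

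Transcript length moved with these differences. The members are short, with a median effective length of 539 bases against 2571 bases for all genes tested with an estimate. The 13 members under 300 bases had a median log2 fold change of -0.40, the 37 from 300 to under 600 bases -0.28, the 21 from 600 to under 1200 bases -0.23 and the 17 longer ones -0.23. Genes that are not members followed a like order, with -0.31 for 67 genes, -0.21 for 337, -0.15 for 1358 and 0.00 for 9927 in the same classes. Across the 88 members Spearman's rho of length and log2 fold change was 0.44, against 0.19 across 11689 other genes. These are descriptions across genes that share libraries. The ratio of ZsGreen+ replicate 1 to replicate 2 went with length more closely, with a rho of -0.63 over the members. Its median was 0.68 for the members under 300 bases and 0.80 for 66 other genes of that length. Between tdTomato+ replicates 1 and 2 rho was 0.27. Without ZsGreen+ replicate 1 the members under 300 bases had a median log2 fold change of 0.02, and rho over the members turned to -0.37. The part of length in the members' values was not tested.

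**Figure D4:**
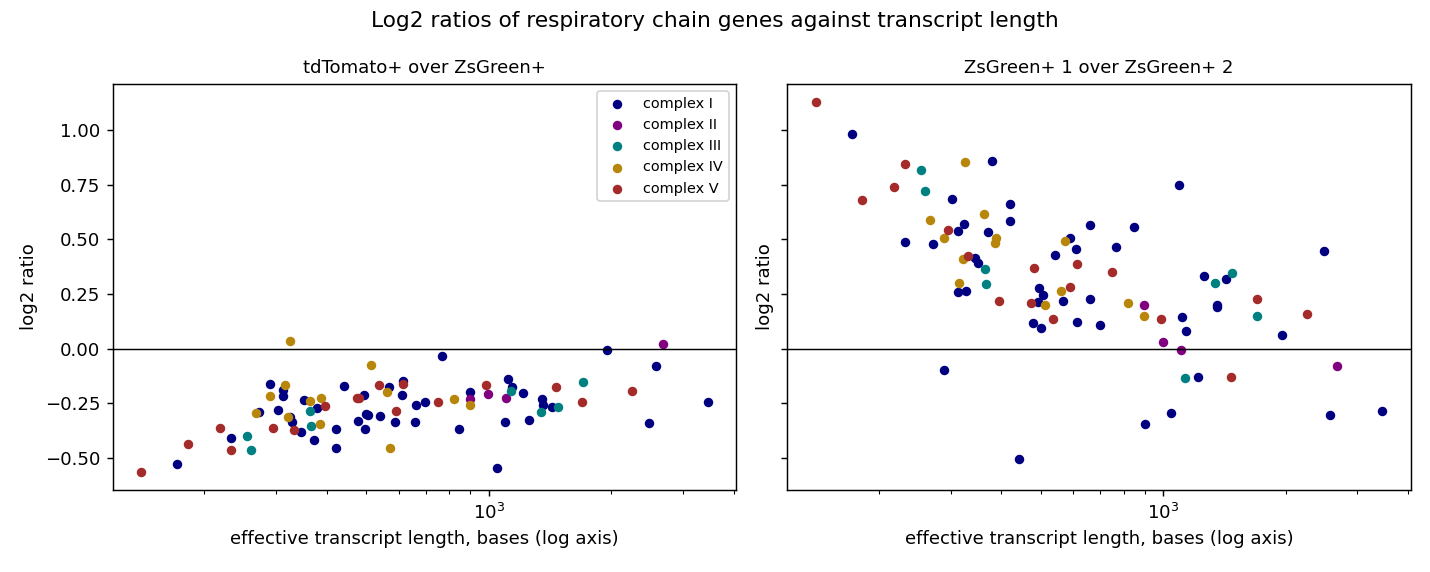
Log2 ratio (vertical axis) of 87 of the 88 tested members against effective transcript length in bases (log axis), for tdTomato+ over ZsGreen+ (left, edgeR) and for ZsGreen+ replicate 1 over replicate 2 (right, CPM). Short genes lie lowest on the left and highest on the right, where members under 300 bases have a median of 0.68.

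Other genes of mitochondrial respiration outside the rule were compared in the same way, and edgeR called none of them, nor did DESeq2 or limma-voom in the lists of this paragraph and of ribosomal proteins. Of 43 tested assembly factors of complexes I to V beyond the Ndufaf genes, 32 were below 0, with a median of -0.18. Of the 43, 1 had an unadjusted p under 0.05, against 8.77% of all genes tested. The smallest p-values were those of Dmac1, an assembly factor of complex I read at 21.7 and 21.3 CPM against 33.5 and 28.7 CPM (-0.53, SE 0.21), and of Sdhaf1, which helps to mature Sdhb (-0.46, SE 0.23). Of 22 carrier, ubiquinone synthesis and further subunit genes 17 were below 0, with a median of -0.15. Among them Higd1a, a small hypoxia-inducible protein that binds complex IV, was read without overlap at 53.3 and 63.2 CPM in tdTomato+ and 88.5 and 76.3 CPM in ZsGreen+ cells (log2 fold change -0.50, SE 0.19), and Cycs, cytochrome c, had -0.30 (SE 0.17). Of 13 citric acid cycle genes 11 were below 0, with a median of -0.10 and Suclg2 at -0.23. Of 16 genes of mitochondrial import, pores and structure 13 were below 0, with a median of -0.11 and the pore Vdac3 at -0.32.

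Regulators of mitochondrial biogenesis did not share the direction, with 7 of 18 below 0 and a median of 0.02. Median effective length was 2486 bases here, 2095 for the citric acid cycle genes and 1436 for those of import, pores and structure. The members had 539 bases, and the part of length in these contrasts was not tested. The nuclear receptor Esrra had -0.20 (SE 0.20) and the coactivator Pprc1 0.16 (SE 0.23). Mitochondrial ribosomal protein genes, whose products translate the mitochondrially encoded subunits, had a median of -0.20 with 71 of 78 below 0. Of the 78, 4 had an unadjusted p under 0.05, against 8.77% of all genes tested. Mrpl41, of the large subunit, was read without overlap at 20.7 and 22.8 CPM in tdTomato+ and 30.8 and 32.4 CPM in ZsGreen+ cells (log2 fold change -0.54, SE 0.20). Cytosolic ribosomal protein genes, which serve no respiratory function, also had a median of -0.20, with 80 of 81 below 0, and ZsGreen+ replicate 1 was the highest library for 79 of them. Both tdTomato+ libraries lay below both ZsGreen+ libraries for 5 of the 81, or 6.17%. That share was 40.9% of the members, 52.6% of mitochondrial ribosomal protein genes and 18.2% of all genes tested. It was 46.2% of the citric acid cycle genes, 34.9% of the further assembly factors and 27.3% of the carrier, ubiquinone synthesis and further subunit genes. For genes of import, pores and structure it was 18.8%, and for regulators of biogenesis 5.56%. ZsGreen+ replicate 2 was the lowest library for 46 of the 81 cytosolic ribosomal protein genes. Their median log2 ratio of tdTomato+ replicate 2 to ZsGreen+ replicate 2 was 0.18. The hypoxia-linked pair left out of the rule, Ndufa4l2 and Cox4i2, lay at or under 3.28 and 5.33 TPM in every library, while Bnip3, a hypoxia-induced mitophagy receptor, had -0.88 (SE 0.20, edgeR adjusted p = 0.201) and was called by DESeq2.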

How the data were processed

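RNA from sorted lung endothelial cells (under 4 µL per library) went through whole-transcriptome amplification before MGI library construction, per the labels' protocols. Ratios between single libraries are of CPM scaled with TMM factors. The deposited table gives estimated counts, FPKM and TPM per gene and library, per the file headers. RSEM 1.3.1, DESeq2 1.4.5 and GRCm38 are named in the submitters' processing notes; the step each served is not stated. The aligner and strand setting were not given in the sources used here. Without strand, overlapping genes cannot be told apart. Counts of 12 members are not whole, as when reads are shared between genes. The 4 columns of normalized counts were not used.

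Counts were rounded and compared with edgeR 4.0.16 (R 4.3.3): TMM factors, filterByExpr with a minimum count of 10, two-sided quasi-likelihood F-test and Benjamini-Hochberg adjustment over 13177 genes, called at an adjusted p under 0.05. Standard errors are absolute fold changes (log2) divided by the root of F. Effective length was taken from the authors' counts and FPKM. With 2 against 2 libraries an exact permutation test cannot go below 0.333, so none is given. The fit was tested on simulated data.

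Named are, in each complex and at a mean of at least 5 CPM, the member of highest mean TPM, the 2 of smallest p and the largest rise and fall, then the isoform families, complex II, the core subunits of complex I, and at most 2 genes per other list. The values of 1 member are not reported here singly, but it is counted in every total. Members and other genes outside that rule were named after their values were seen. Members and lists were chosen with earlier results of these data known. Lists of smooth muscle and pericyte markers (1600, 2119, 1636 and 1249 summed CPM in tdTomato+ replicates 1 and 2 and ZsGreen+ replicates 1 and 2) and lymphocyte markers (15.8, 6.62, 16.5 and 3.45) were also read. Most of the smooth muscle and pericyte sum was Tagln, at 1336, 1787, 1300 and 894 CPM in the same order. Smtn followed at 236, 286, 307 and 320 CPM, while Myh11 lay at 2.85 to 7.67 CPM. Of these 10 genes 7 had log2 fold changes above 0 and 3 below. EdgeR called 0 of them, with 2 at an unadjusted p under 0.05, against 8.77% of all genes tested. Alternatives used limma 3.58.1 and DESeq2 1.42.0. Coordinates are those of RefSeq on GRCm38.p6, matched by NCBI Gene identifier for 93 of 93 members.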

Additional observations from a re-analysis of the deposited data

How the results depend on the processing

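No member was called under any alternative run, with the smallest adjusted p at 0.198 without ZsGreen+ replicate 2. Among alternative values for single named members 383 kept direction and 22 changed sign. Among those for counts, complexes and isoform shares 24 moved and 159 did not. A median, summed level or share moved where it changed by at least the spread between replicates. Complexes, isoforms and named genes are listed below only where a value moved or changed sign. The count of genes called moved from 40 to 330 with DESeq2, 128 without a filter, 22 with log2(TPM + 0.1) and 4 to 304 with 1 library left out. With the replicate block it was 934, of which 0 were members (2 had an unadjusted p under 0.05). Same-numbered libraries deviated together (correlation 0.45 over 13177 genes), which with only 2 numbers shared is a hint from the data and no shown pairing.

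On the TPM scale the median of all genes tested was 0.12 (pseudocount 1) or 0.13 (pseudocount 0.1) in log2, and members lay 0.21 or 0.23 below it, with 77 of 89 below 0. With either pseudocount the median was -0.10 for complex I, -0.060 for complex II and -0.038 for complex IV, and changed sign for Atp5g1 (0.015), Ndufs1 (0.078 and 0.081) and Ndufs3 (0.14). Upper quartile factors put Ndufs3 at 0.012. Leaving out 1 library in turn gave medians of -0.42 to -0.10 for complex I and -0.45 to -0.0087 for complex IV, with 7 to 13 members of complex IV below 0. It gave Atp5g1 -0.34 to 0.049, Atp5k -1.02 to 0.11, Cox6b1 -0.45 to 0.057, Cox6b2 -0.34 to 0.52, Cox8a -0.52 to 0.10 and Ndufa3 -0.94 to 0.044. It gave Ndufs1 -0.23 to 0.075, Ndufs3 -0.25 to 0.22, Ndufs8 -0.43 to 0.034, Sdha -0.019 to 0.071 and Uqcr11 -0.75 to 0.069. The log2 ratio of summed levels was -0.13, -0.03, -0.07 and -0.12 for complexes I, II, IV and V in TPM and -0.28, -0.13, -0.25 and -0.25 in CPM. For complex III, where it did not move, it was -0.17 in TPM. Shares of CPM gave 0.0548% for Cox7a1 and 32.1% for Atp5g1, against 0.209% and 27.4% of TPM. The cause of these changes was not tested, and a left-out library leaves 1 sample in its group, which is assumed to vary like the other group.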
